A study of Mus musculus with 6 samples.

Results

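The complement and coagulation genes are 45 mouse genes named by symbol, in a list chosen with earlier results of these data known. Among them are the complement components and their receptors, the clotting factors, and the activators and inhibitors of clotting and fibrinolysis. A probe was found by symbol for 44 of the 45, of 17742 named genes on the array, and C1ra had none. Each gene is given at the probe with the highest mean intensity over the 6 arrays. RNA came from female BALB/c mice, with 1 array in each of 6 groups. By their labels the arrays are of brain, ovary or uterus, from mice with no treatment (mock) or from mice given the herbal decoction SHT (Sheng-Hua-Tang) by mouth at 200 mg/kg over 7 days. Neither the age of the mice nor whether animals were pooled is given in the sources used here. With 1 array a group, no difference between 2 arrays can be set against replicates, and precision is limited by how few arrays there are.

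Complement is a chain of plasma proteins that marks particles and cells for uptake and lysis. The C1 complex starts its classical pathway, the Masp proteases its lectin pathway, and factors B and D with properdin its alternative pathway, and all of them meet at the cleavage of C3. Clotting starts where tissue factor (F3) meets factor VII, runs through thrombin to fibrin, and is undone by plasmin. Most of the circulating proteins are made by the liver, while C1q comes mainly from macrophages and microglia, and C3 in the uterus is known to respond to oestrogen.

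On 4 of the 6 arrays the tissue markers did not match the label, which bears on every comparison. The summed intensity of 5 neuron markers was 122290 (mock brain) and 130667 (SHT ovary), against 565 to 4317 on the other 4. Granulosa and oocyte markers summed to 43381 (SHT brain) and 74034 (mock uterus), and to 1154 to 4405 elsewhere. Squamous epithelial markers such as Krt5 and Krt14 summed to 151330 (mock ovary) and 133448 (SHT uterus), and to 1014 to 1363 elsewhere. Uterus markers summed to 87030 (SHT uterus), 49011 (SHT brain), 47144 (mock ovary) and 25272 (mock uterus), and to 4335 to 4531 elsewhere. Only the labels mock brain and SHT uterus matched the highest of the brain, ovary and uterus scores. These scores average log2 values over a list, so they need not rank the arrays as the sums do. Each of the 3 pairs of one labelled tissue contains at least 1 array at odds with its label, so no labelled pair is left once those 4 arrays are set aside. Arrays are named by their labels below, a direction belongs to the arrays and not to a tissue or to SHT, and treatment and tissue cannot be told apart in any labelled pair. In whole tissue, fewer cells of a type and less RNA per cell cannot be told apart either.

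Intensities are those of the deposited table, without scaling, and 6 values in a row run from labelled brain through ovary to uterus, with mock before SHT in each. The background level of an array is the 95th percentile of its 529 olfactory receptor genes, which lay at 541, 275, 312, 403, 295 and 318. Levels of different genes are not compared, since each probe has its own response.

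By this measure 23 of the 44 genes were above background on at least 1 array, 12 of them on all 6, and 21 were inside background everywhere. The share inside background on all arrays was 47.7%, against 34.03% of all named genes. In the same order, 12, 23, 20, 12, 21 and 22 of the genes were above background. Those labelled mock brain and SHT ovary thus had the fewest, and the same 12 genes were above background on both. All named genes were also above background least often on these 2 arrays, at 44.2% and 48.0% against 51.0% to 55.3% on the others, and their background levels were the highest of the 6.

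The promoter of C3 is shown because C3 is where the pathways meet and it differed 2-fold in 11 of the 15 pairs of arrays, and that of C1qc because all 3 C1q chains were above background on all arrays. Both were chosen after their values were seen. The windows run from 250 bases before to 50 after the annotated start (RefSeq, GRCm38.p6) and are written 5′ to 3′ on the minus strand. Capitals mark a match to the TATA box motif (TATAAA) in C3 and to the PU.1 motif (GAGGAAGT, here on the opposite strand) in C1qc. PU.1 is a transcription factor of macrophages.
C3, chr17:57228087-57228386: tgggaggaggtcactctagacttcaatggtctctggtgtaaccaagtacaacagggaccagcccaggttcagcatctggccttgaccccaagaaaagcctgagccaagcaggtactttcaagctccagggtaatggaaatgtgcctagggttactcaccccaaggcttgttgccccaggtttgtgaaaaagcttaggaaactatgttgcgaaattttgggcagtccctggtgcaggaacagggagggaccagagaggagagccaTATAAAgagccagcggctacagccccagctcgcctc
C1qc, chr4:136892865-136893164: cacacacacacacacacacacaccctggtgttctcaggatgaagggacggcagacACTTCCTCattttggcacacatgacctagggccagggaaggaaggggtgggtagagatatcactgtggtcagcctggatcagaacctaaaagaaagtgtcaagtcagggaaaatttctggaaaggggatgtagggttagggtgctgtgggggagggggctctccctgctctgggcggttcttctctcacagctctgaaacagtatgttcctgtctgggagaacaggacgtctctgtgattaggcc

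The TATAAA match of C3 begins at base 15 after the annotated start, not before it, and whether it serves as a TATA box was not tested. The PU.1 match of C1qc begins 195 bases before the annotated start. Windows were held for 33 of the 44 genes (37 windows), and each motif was searched on both strands. TATAAA was present in the windows of C3, C3ar1, C7, F3 and Tfpi and in 13.6% of all 32851 windows. GAGGAAGT was present in those of C1qc and F13a1 and in 3.20% of all windows. The C/EBP motif TTGCNNCAA was present in C6, C7 and Fga and in 2.08% of all windows. The palindromic oestrogen response element and the HNF1 motif of liver genes, each searched with no mismatch, were in no window of the set and in 0.0700% and 0.00913% of all windows. A match is a run of letters, not a measured binding site.

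The 3 chains of C1q, the recognition protein of the classical pathway, were above background on every array. C1qa read 10022, 11152, 13976, 13014, 14621 and 21783. C1qb read 2165, 3357, 3608, 2517, 3956 and 6009. C1qc read 1418, 2205, 2274, 1308, 2639 and 4420. All 3 were highest on the array labelled SHT uterus, and their highest value was 2.17, 2.78 and 3.38 times their lowest. No chain differed 2-fold in any of the 3 labelled pairs. Of the 8 microglia and macrophage markers chosen, 7 had a probe, and 6 or 7 of these were above background on every array. Their summed intensity was lowest at 8539 (mock uterus) and highest at 22878 (SHT uterus), and no marker with a probe read 0. Their part in the C1q values was not tested.

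C2, the classical protease whose gene neighbours Cfb in the RefSeq table, read 750, 2864, 1025, 676, 4490 and 3958. It was thus highest on the arrays labelled mock uterus, SHT uterus and SHT brain, with the other 3 at 1025 or lower. The lectin pathway proteases Masp1 and Masp2 were inside background throughout, at 95.01 to 155 and 6.31 to 11.4.

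C3, the protein on which all 3 pathways converge, read 186, 34882, 8412, 153, 20084 and 17514. It was inside background on mock brain and SHT ovary and far above it on the other 4 arrays. Cfb, the factor B protease of the alternative pathway, read 69.7, 23703, 4221, 68.6, 2463 and 20271, again inside background on those 2 arrays. Its order among the other 4 differed from that of C3: mock uterus was the lowest for Cfb and the second highest for C3. Cfp, properdin, which stabilises the alternative convertase, had a narrow range and read 1070, 1883, 1737, 956, 2661 and 2777.

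Among regulators and receptors, Cd55, which speeds the decay of the convertases on a cell's own surface, read 73.7, 882, 1280, 80.7, 402 and 1093. Cfi, the protease that inactivates C3b, read 16.0, 2509, 120, 22.8, 555 and 252, so only SHT brain and mock uterus, the arrays with oocyte markers, were above background. C3ar1, the receptor of the C3a fragment, read 57.3, 394, 561, 65.1, 372 and 1215. Cd55 and C3ar1 were above background on the same 4 arrays as C3. C5ar1, the C5a receptor of myeloid cells, was inside background on all 6, with a highest value of 118.

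Of the 5 terminal components, which build the lytic pore, C6, C7, C8a and C9 were inside background on all arrays, with highest values of 119, 27.7, 31.3 and 69.3. The probe named C8b, after the beta chain of C8, read 2628, 838, 745, 2676, 1118 and 1407. It ran opposite to C3 and Cfb, with its highest values on mock brain and SHT ovary. Whether this probe measures C8b was not tested.

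**Figure D1:**
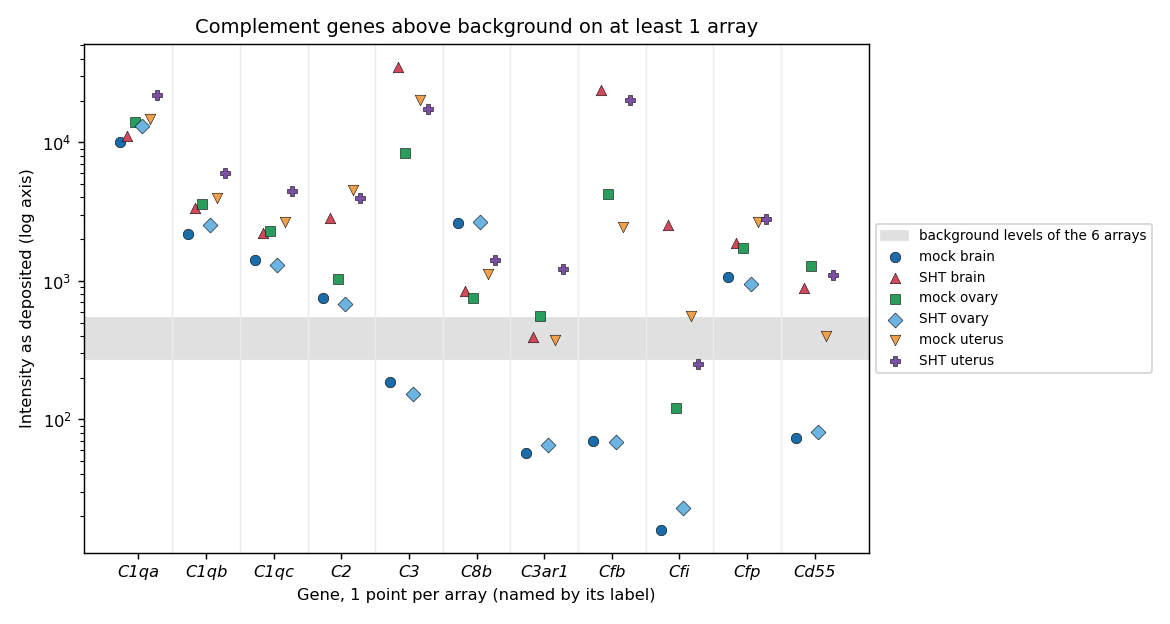
Intensity of the 11 complement genes above background on at least 1 array, with 1 point per array named by its label and a log axis. The grey band spans the background levels of the 6 arrays (275 to 541). C3, Cfb, Cd55, C3ar1 and Cfi lie below the band for mock brain and SHT ovary, while the C1q chains lie above it on all 6.

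Tissue factor (F3), the cell-surface starter of clotting, was above background on every array and read 6172, 14222, 8304, 6427, 2612 and 10910. Its lowest value was on the array labelled mock uterus and its highest on that labelled SHT brain, the 2 arrays with granulosa and oocyte markers. Its inhibitor Tfpi read 149, 809, 667, 139, 1011 and 1638, inside background only on mock brain and SHT ovary. A further Tfpi probe read 59.3, 808, 603, 63.4, 1140 and 876, with the same 2 arrays lowest and mock uterus in place of SHT uterus as the highest. F7 was inside background, at 9.36 to 32.0. Tfpi2, a related inhibitor known from placenta, was also inside background, at 5.69 (mock brain) to 279 (SHT uterus).

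Among the cascade factors, F2 (prothrombin), F8, F9, F10, F11 and F12 were inside background on all arrays. The highest readings of these 6 were 64.7, 289, 326, 206, 31.3 and 76.5. F5, the cofactor of factor X, read 220, 311, 1110, 188, 311 and 2557, and its 2 highest values were on the arrays with squamous markers, mock ovary and SHT uterus. Vwf, the platelet-tethering protein of endothelium and megakaryocytes, read 552, 315, 945, 424, 615 and 1173, with all 6 values near or moderately above background.

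The fibrinogen chains Fga, Fgb and Fgg read at most 88.3, 9.01 and 1.66, and F13b at most 62.8, all inside background. F13a1, the catalytic subunit of the fibrin-crosslinking factor XIII, which macrophages and megakaryocytes also make, read 116, 370.5, 894, 125, 207 and 984. Like F5 it was highest on mock ovary and SHT uterus. The platelet list had 5 of 5 markers with a probe, 1 to 3 of them above background. It summed to 1289 to 3588 on 5 arrays and to 33884 on SHT uterus, where Ppbp alone read 30701. On mock ovary it summed to 3588, and the part of platelets in the F5 and F13a1 values was not tested. Of 6 hepatocyte markers 5 had a probe, and they summed to 273 to 4245. Alb, the gene of serum albumin, was inside background on all arrays, with a highest value of 203. Apoh and Ahsg were too, with highest values of 39.0 and 174. Apoa1 was above background only on SHT brain (2419) and mock uterus (3765), and Ttr only on mock brain (1607) and SHT ovary (2515).

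Of the 5 anticoagulant and receptor genes, 4 were above background on some arrays. F2r, a thrombin receptor, read 1488, 3818, 4033, 1183, 6604 and 11184. Thbd, thrombomodulin, which turns thrombin towards protein C, read 382, 1584, 2296, 318, 1740 and 2571. Both were lowest on mock brain and SHT ovary and highest on SHT uterus. Procr, the endothelial protein C receptor, read 28.4, 461, 297, 31.5, 733 and 452. Pros1, protein S, read 900, 4106, 2497, 873, 6130 and 5712. These last 2 were also lowest on mock brain and SHT ovary, but highest on mock uterus. Proc, protein C itself, was inside background at 6.64 to 21.8. The 6 endothelial markers, among them Pecam1 and Cdh5, summed to 3028, 7806, 7524, 3152, 12009 and 12448, also lowest on mock brain and SHT ovary, where 1 and 5 of them were above background, against 6 on each other array, with none at 0. Their part in these 4 genes was not tested.

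In fibrinolysis, the tissue-type activator Plat read 3122, 4665, 3795, 3052, 10176 and 12959. The urokinase gene Plau read 809, 6800, 7431, 714, 5113 and 6027. Its receptor Plaur read 39.5, 282, 289, 41.3, 175 and 1002, above background only on SHT brain (just) and SHT uterus. Plat thus separated the 2 arrays labelled uterus from the other 4, whereas Plau separated mock brain and SHT ovary from the rest. Plg, the plasminogen precursor from liver, was inside background at 13.3 to 17.7.

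**Figure D2:**
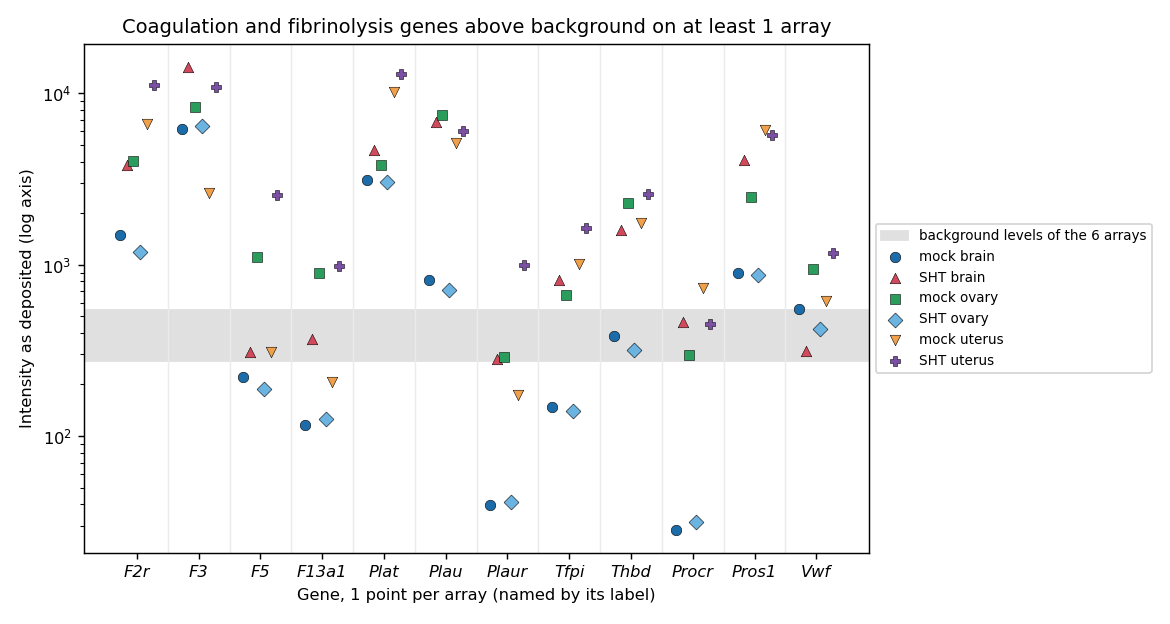
Intensity of the 12 coagulation and fibrinolysis genes above background on at least 1 array, with 1 point per array named by its label and a log axis. The grey band spans the background levels (275 to 541). Mock brain and SHT ovary hold the 2 lowest points for 10 of the 12 genes, all but F3 and Vwf, and F3 has its lowest point on the array labelled mock uterus.

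Of the 23 genes above background, 19 had their 2 lowest values on mock brain and SHT ovary, a share of 82.6%, against 35.8% of the 11704 named genes above background on at least 1 array. The exceptions were C1qa, F3, C8b and Vwf. All of these were among the 12 genes above background on every array, where C1qb, C1qc, C2, Cfp, F2r, Plat, Plau and Pros1 had the pattern. The other 11 genes were inside background on mock brain and SHT ovary and passed the filter through other arrays alone. For those 11 the filter itself favoured low values on these 2 arrays. Whether the share would exceed that of all genes without them was not tested. The array labelled SHT uterus held the highest value of 13 of the 23 (56.5%, against 26.6% of all such genes). SHT brain held that of 4, mock uterus of 3, mock ovary of 2, SHT ovary of 1 and mock brain of none.

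The first comparison set the array labelled SHT brain against that labelled mock brain, and was meant to ask what SHT did in brain. On SHT brain 0 of 5 neuron markers were above background, against 5 of 5 on mock brain, so the pair cannot answer that. C3, Cfb and Cfi were higher on the SHT array, as were the activator Plau and the anticoagulant Pros1, and C8b was lower. A gene was counted at 2-fold or more, relative to the median gene (which differed by -0.12 on the log2 scale), with values inside background raised to the background level. Such folds are lower bounds, written as "at least". Of the 23 genes above background on either array, 9 were higher and 1 lower, together 10, or 43.5%. Among all genes the share was 40.7%, with 19.3% higher and 21.3% lower, so the total lay near that of all genes. C3 was at least 70.1-fold higher, Cfb at least 47.6-fold and Cfi at least 5.04-fold. Plau was 9.13-fold higher, Pros1 4.96-fold, C2 4.15-fold, F2r 2.79-fold and F3 2.505-fold, and Thbd at least 3.18-fold. C8b was 2.89-fold lower. Relative to the median gene but with no value raised to background, the median difference was 0.44 over the 44 genes and 0.00 over all 17742 genes.

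In the pair labelled ovary the directions turned. The arrays with neuron markers were the mock array of the pair labelled brain and the SHT array of this pair. These arrays, mock brain and SHT ovary, correlated at 0.996 over all probes. C3, Plau, Cfb and Thbd were lower on the SHT array than on the mock array, and C8b was higher. Of 20 genes above background on either array, 11 were lower and 1 higher, together 60.0%. Among all genes 42.4% differed, 21.2% lower and 21.2% higher. C3 was at least 23.7-fold lower, Cfb at least 11.9-fold, Plau 11.8-fold, Thbd at least 6.46-fold, F2r 3.86-fold, Cd55 at least 3.60-fold and Pros1 3.24-fold. F5, Vwf, F13a1 and Cfp were also lower, at least 3.12-fold, 2.53-fold, at least 2.52-fold and 2.06-fold, and C8b was 3.17-fold higher. The median gene differed by 0.18, and Cfp was under 2-fold, at -0.86 on the log2 scale, without that correction. Relative to the median gene but with no value raised to background, the median difference was -0.62 over the 44 genes and -0.05 over all genes.

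In the pair labelled uterus, F5, Cfb and F3 were among the genes higher on the SHT array than on the mock array, and none was 2-fold lower. Cfi, at 555 and 252, was at least 1.78-fold lower, and Procr was 1.66-fold lower. The absence of lower genes depended on the background level. With values as read 1 gene was 2-fold lower, and with the olfactory receptor median as background 2 were. Of 23 genes above background on either array 7 were higher (30.4%). Among all genes 20.1% differed, 11.9% higher and 8.12% lower. F5 and Cfb were each 8.06-fold higher, F3 4.09-fold, C3ar1 3.20-fold and Cd55 2.66-fold. F5 on mock uterus, at 311, lay just above the background of 295. With the 99th percentile as background, the log2 difference of F5 went from 3.01 to 2.14 and that of C3ar1 from 1.68 to 1.06. Plaur was at least 3.32-fold and F13a1 at least 3.27-fold higher. C3 did not follow Cfb here, at 20084 and 17514. Neutrophil markers, all 4 with a probe, summed to 1542 on mock uterus and 67257 on SHT uterus, and the macrophage markers to 8539 and 22878. The platelet markers summed to 2399 and 33884, but Ppbp alone read 81.9 and 30701. Pf4 and Gp1ba were also higher on SHT uterus, while Itga2b and Gp9 were lower there and inside background on both arrays. The part of these cell types in the differences was not tested.

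**Figure D3:**
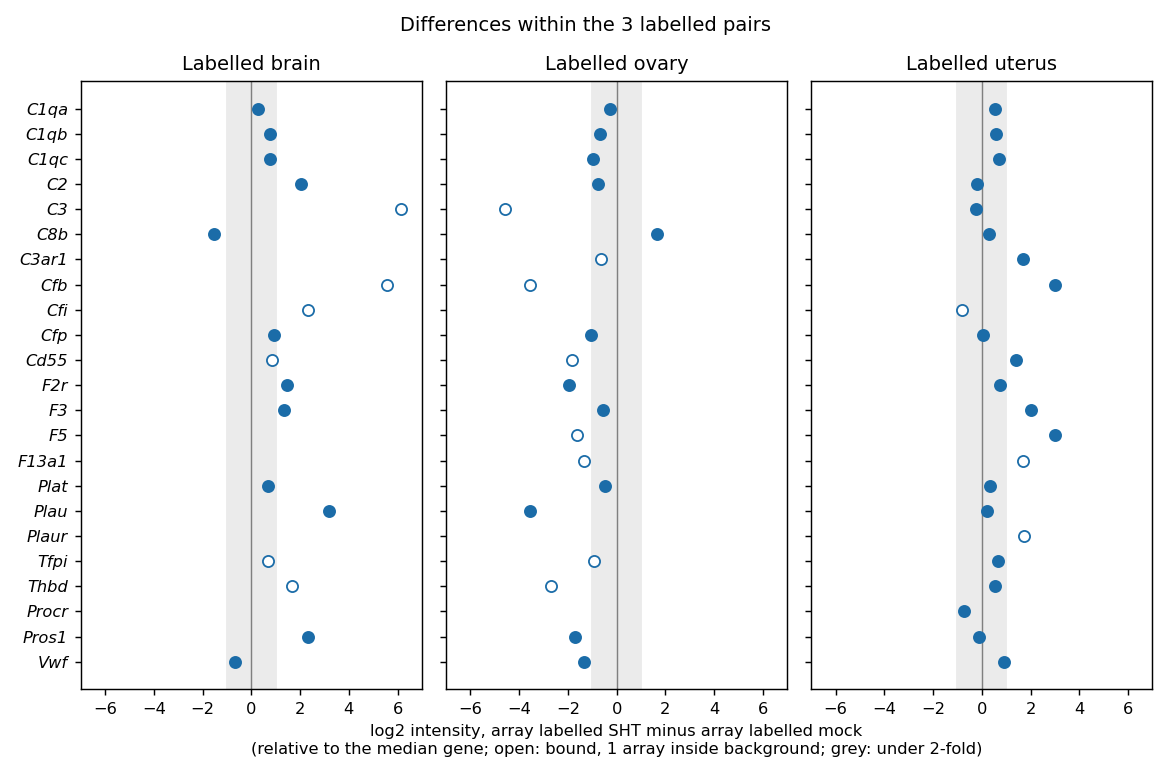
Difference in log2 intensity, SHT minus mock and relative to the median gene, for the 23 genes above background on at least 1 array, in the pairs labelled brain, ovary and uterus. Open points are bounds from 1 array inside background, grey marks differences under 2-fold, and a gene with no point was inside background on both arrays or gave no bound. The bounds of C3 lie at 6.13 in the first panel and -4.56 in the second.

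Averaged over the 3 labelled tissues, 0 of the 20 genes of the set that passed the filter on dim genes differed between SHT and mock (limma with tissue as a block, Benjamini-Hochberg over 10754 genes, two-sided), and 0 had an unadjusted p under 0.05. Over all genes 0% were called, and 4 had an unadjusted p under 0.05. F3 had the lowest p in the set, with an average log2 difference of 0.97 ± 0.59 (SE) and an unadjusted p of 0.180 in limma. It was higher on the SHT array in the pairs labelled brain and uterus and 1.46-fold lower in that labelled ovary. Cfb had an average of 1.84 ± 3.01 (SE). This test measures the spread between tissues that did not match their labels.

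Taking the 6 arrays in all 15 pairs gave a scale for these differences that does not use the labels. Between mock brain and SHT ovary, which correlated at 0.996 over all probes, none of 12 genes above background differed 2-fold, against 0.105% of all genes. The largest difference there was 1.31-fold, for C1qa. Between SHT brain and mock uterus, which correlated at 0.981, 5 of 23 genes differed (21.7%, against 6.02% of all genes), and all 5 were higher on SHT brain. Cfb was 11.8-fold higher there, F3 6.66-fold, Cfi 5.54-fold, Cd55 2.69-fold and C3 2.13-fold. Between mock ovary and SHT uterus, which correlated at 0.972, 5 of 22 differed (22.7%, against 9.24%), and all 5 were higher on SHT uterus. Cfb was 3.54-fold higher, C2 2.84-fold, Plat 2.52-fold, Plaur at least 2.36-fold and F2r 2.04-fold. Cfb was therefore the 1 gene of the set that differed in both of these pairs, and over the 15 pairs it differed in 13, followed by C3 in 11 and F2r in 10.

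The highest count was between SHT ovary and SHT uterus, where 19 of 22 genes differed (86.4%, against 41.5% of all genes). Between mock brain and SHT uterus 15 of 22 differed (68.2%, against 40.6%). In these 2 pairs C1qb and C1qc were 2.08-fold and 2.94-fold, and 2.52-fold and 2.83-fold, higher on SHT uterus, while C1qa did not reach 2-fold in any pair. C1qb was also 2.01-fold higher on mock ovary than on mock brain. Of the other pairs with unlike tissue labels, mock brain differed from mock ovary in 11 of 20 genes (41.3% of all genes) and from mock uterus in 11 of 21 (38.4%). SHT ovary differed from SHT brain in 13 of 23 (41.3%) and from mock uterus in 12 of 21 (39.2%). Among arrays other than mock brain and SHT ovary the counts were lower: 7 of 23 between SHT brain and mock ovary (19%), 9 of 23 between SHT brain and SHT uterus (16.6%) and 8 of 22 between mock ovary and mock uterus (23.8%). The pairs share arrays, so their counts are not independent.

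**Figure D4:**
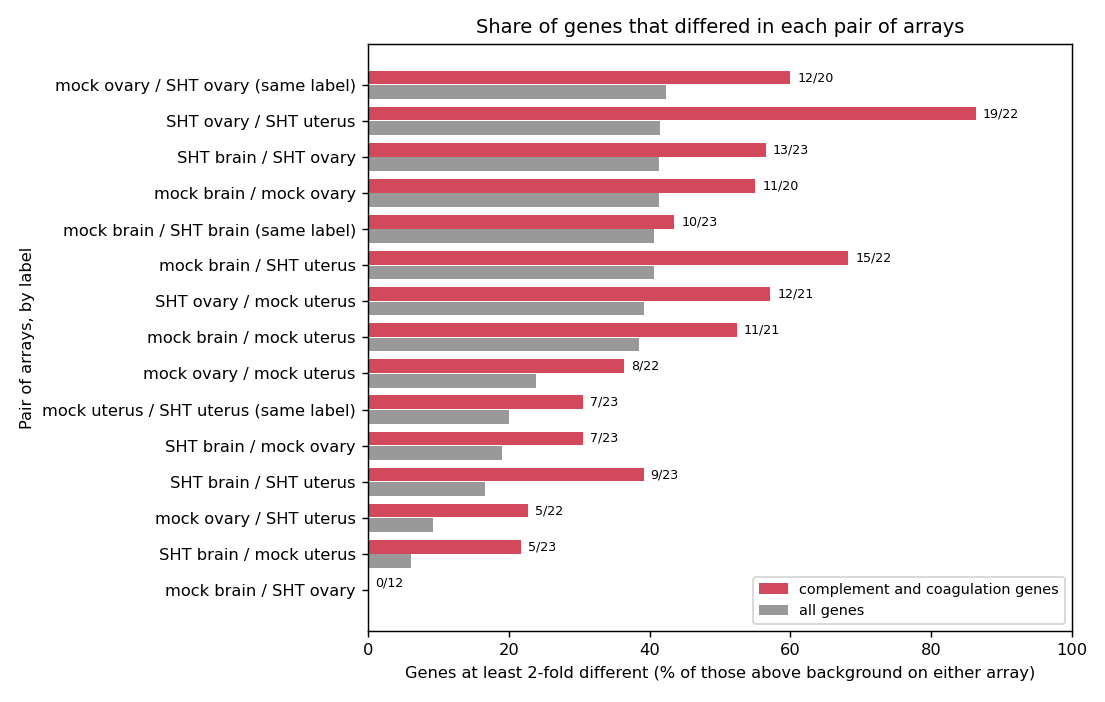
Share of genes at least 2-fold different in each of the 15 pairs of arrays, among genes above background on either array, for the complement and coagulation genes (red, with counts) and all named genes (grey). The share is 0 of 12 between mock brain and SHT ovary, and 19 of 22 between those labelled SHT ovary and SHT uterus.

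Of 64 further genes of the 2 systems, 54 had a probe. In the pair labelled brain 12 were higher and 4 lower among 30 above background (53.3%, against 40.7% of all genes). In that labelled ovary 2 were higher and 14 lower among 28 (57.1%, against 42.4%), and in that labelled uterus 6 were higher and 4 lower among 30 (33.3%, against 20.1%). Cfd, factor D, which cleaves factor B, read 178, 21893, 12650, 26.1, 32246 and 18850. Serping1, the C1 inhibitor, read 295, 7884, 6875, 277, 10124 and 11875. Both followed C3 in being inside background on mock brain and SHT ovary alone. Tgm2, a transglutaminase, read 934, 27732, 8441, 851, 8421 and 21035. Anxa2, a cell-surface partner of plasminogen and Plat, read 2179, 47868, 50303, 2477, 34010 and 53339. Both were above background on all 6 arrays and lowest on mock brain and SHT ovary. Serpina5, the protein C inhibitor, read 19.1, 7382, 14.4, 16.9, 8238 and 16.3, above background only on the arrays with oocyte markers. Itgam, a chain of complement receptor 3 on myeloid cells, read 472, 855, 1767, 565, 215 and 2840.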

How the data were processed

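Per the labels' protocols, the RNA was amplified and labelled with Cy5 alone. The deposited table holds linear intensity for 26423 probes on 6 arrays; limma is named in the submitters' processing notes with no version, and no source used here gives the background correction, scaling or detection flags. Medians ran from 179 to 224. Before log2, values under an array's 5th percentile of positive intensities were set to it; 65000 was taken as the top of the scale. Symbols came from the platform annotation (20377 probes with 1 symbol, 6046 with none) and were updated through RefSeq (GRCm38.p6): 18213 matched a current symbol, 2126 a synonym and 38 neither.

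The 44 genes with a probe are all named. Labelled pairs, and all 15 pairs, were compared by fold without a test. The average SHT effect used limma 3.58.1 in R 4.3.3 (lmFit, eBayes with a trend) on genes above the median mean level of all probes. Both steps were checked on simulated data. The limma simulation used blocks of matching tissue and the noise of the closest pair of arrays. It does not show whether the fit could find an effect in blocks that mix unlike tissues, as here. Of the further genes, the 6 with the largest called fold in a labelled pair are given with values. Alternatives were quantile normalization, no centring, median centring, averaging a gene's probes, other background levels, values as read, a 3-fold threshold, no trend, no block, no filter and each tissue left out. The genes, lists and rules were chosen with earlier results of these data known.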

Additional observations from a re-analysis of the deposited data

Results flagged for a closer look

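For 10 genes the labelled pairs differed 2-fold or more in opposite directions, 43.5% of the 23 above background, against 33.3% of all genes above background. The difference between pairs was not tested, with 1 array a group and labels that 4 arrays go against. Mock brain and SHT ovary, both with neuron markers, correlated at 0.996 over all probes. They stand on opposite sides of the pairs labelled brain and ovary, as the mock array of one and the SHT array of the other. Values are log2 intensity, SHT minus mock, relative to the median gene, and where 1 array was inside background they are bounds on the size of the difference. Bounds are the values of C3 and Thbd, those of Cfb in brain and ovary, those of F5 and Cd55 in ovary, and those of F13a1. C3 was at 6.13 in the pair labelled brain and -4.56 in that labelled ovary. Cfb was at 5.57 in brain, -3.57 in ovary and 3.01 in uterus, the 1 gene of the set past 2-fold in all 3 pairs. Plau was at 3.19 in brain and -3.56 in ovary, Pros1 at 2.31 and -1.70, Thbd at 1.67 and -2.69, and F2r at 1.48 and -1.95. C8b ran the other way, at -1.53 in brain and 1.66 in ovary. Between the pairs labelled ovary and uterus, F5 was at -1.64 and 3.01, Cd55 at -1.85 and 1.41, and F13a1 at -1.33 and 1.71.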

How the results depend on the processing

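Of 29 differences of at least 2-fold named in the labelled pairs, none turned its sign under the 7 alternatives, and all 29 stayed past the threshold under quantile normalization, the mean of a gene's probes and a background at the olfactory receptor median. The 99th percentile as background took 8 under 2-fold (Thbd in brain; Cfp, F5, F13a1 and Vwf in ovary; Cd55, F13a1 and Plaur in uterus), and a 3-fold threshold left 22. With the olfactory receptor median as background, 18 of 35 genes differed in the pair labelled brain (10 of 23 in the report) and 19 of 35 in that labelled ovary (12 of 20), with 43.8% and 43.9% of all genes. With the 99th percentile, 4 of 22 differed in uterus (7 of 23), 7 of 18 between mock ovary and mock brain (11 of 20) and 5 of 22 between SHT uterus and SHT brain (9 of 23), with 18%, 38.9% and 14.5% of all genes. The other 61 of 66 recomputed counts stayed within 1.5 times. The average SHT effect gave 0 genes of the set under all 9 alternatives, with 2 at an unadjusted p under 0.05 in limma without the pair labelled ovary and 0 otherwise. The labelled tissue was the block in the limma fit, and the fit without it also gave 0. Signal over background limits the folds of genes inside background on 1 array to lower bounds.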
